A study of Homo sapiens with 20 samples.

Results

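The effect of an siRNA against KLF10 (siKLF10) under TGFβ was compared between Panc1 and A549 cells, gene by gene. For each gene the log2 change of siKLF10 with TGFβ over TGFβ was taken in Panc1 and in A549, and the difference between both changes, Panc1 minus A549, was tested. The comparison used 10 of the 20 libraries of the series, 6 of Panc1 and 4 of A549. Each library held counts for 23368 genes, of which 14470 had enough reads to be tested and 11766 averaged at least 1 CPM (its counts scaled to the depth of the library) in each line. A positive difference means that siKLF10 raised the gene more, or lowered it less, in Panc1 than in A549.

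Panc1 cells come from a carcinoma of the pancreatic duct, and A549 cells from an adenocarcinoma of the lung. The labels tag both as immortalized with SV40 large T antigen. The groups were Panc1 siKLF10+TGFβ (3 libraries, A to C), Panc1 TGFβ (3 libraries, A to C), A549 siKLF10+TGFβ (2 libraries, A and B) and A549 TGFβ (2 libraries, A and B). All 10 libraries had TGFβ at 5 ng/ml for 72 h, so effects under TGFβ are described and not those without it. The siRNA sequence and the number of siRNAs are not given in the sources used here, and the names of the TGFβ libraries do not say whether they also had a control siRNA. Effects of less KLF10 and any other effect of the transfected siRNA therefore cannot be told apart. No label ties the libraries of a group to separate cultures. The p-values therefore cover only the spread from library to library, which may be technical.

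KLF10 is a zinc-finger transcription factor of the Krüppel-like family that TGFβ induces early and that binds GC-rich and CACCC-type DNA elements. TGFβ signals through its receptors and SMAD proteins, and its known outputs in carcinoma cells include matrix production, arrest of the cell cycle and the epithelial-to-mesenchymal transition. In that transition, factors such as SNAI1, SNAI2 and ZEB1 repress E-cadherin (CDH1), and the cells gain N-cadherin (CDH2), vimentin (VIM) and fibronectin (FN1). The question behind the series was whether KLF10 holds that response back. Comparing the lines asks which effects of siKLF10 were common to both.

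The Panc1 libraries held 11788218 to 15571367 reads in genes, and the A549 libraries 6846761 to 19070551. Reads counted to no gene made up 33.6 to 34.8% in Panc1 and 57.6 to 59.4% in A549. The base was reads in genes, in no gene or ambiguous between genes. Of 8 pancreatic markers, KRT19 and SOX9 passed 1 CPM, in both lines, and PDX1, INS and PRSS1 were at or near 0 in all 4 groups. Of 8 lung markers, none reached 1 CPM in A549, LAMP3 did in Panc1, and SFTPA1, SFTPB and SFTPC were at or near 0, so islet, acinar and surfactant markers were absent. Haematopoietic markers summed to at most 12.6 CPM and endothelial markers to at most 6.33 CPM in any library. Fibroblast markers summed to 72.0 to 82.2 CPM in Panc1 siKLF10+TGFβ against 92.1 to 94.5 CPM in Panc1 TGFβ, mostly THY1, and to 16.4 to 17.0 CPM in A549 siKLF10+TGFβ against 10.0 to 12.3 CPM in A549 TGFβ. The fibroblast markers did not move together in Panc1. THY1 averaged 42.3 CPM in Panc1 siKLF10+TGFβ against 64.2 CPM in Panc1 TGFβ, while PDGFRB averaged 8.17 against 1.81 CPM. The part of the markers in the results was not tested.

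The targeted gene fell in both lines, and more so in Panc1. KLF10 measured 97.6, 98.4 and 102 CPM in Panc1 siKLF10+TGFβ libraries A, B and C, against 188, 183 and 202 CPM in Panc1 TGFβ libraries. In A549 it measured 146 and 141 CPM in siKLF10+TGFβ libraries A and B, against 173 and 173 CPM in TGFβ libraries. The groups did not overlap in either line, but KLF10 was 1.93-fold lower in Panc1 and only 1.21-fold lower in A549. The log2 change was -0.95 ± 0.07 (SE) in Panc1, adjusted p = 2.03e-10, and -0.27 ± 0.08 in A549, adjusted p = 0.0177. The difference was -0.68 ± 0.11, adjusted p = 8.37e-05. Adjusted p throughout come from the quasi-likelihood test of edgeR, Benjamini-Hochberg adjusted over the 14470 genes, and a gene was called where it was under 0.05. The A549 call was lost without A549 siKLF10+TGFβ B (log2 change -0.24), without A549 TGFβ A (-0.26) and without A549 TGFβ B (-0.27), so the knockdown in A549 was small and rested on 2 libraries a group. KLF10 kept a higher CPM in both A549 siKLF10+TGFβ libraries than in any Panc1 siKLF10+TGFβ library.

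siKLF10 changed many genes in each line, and the changes were partly the same. In Panc1, 5174 genes were called (35.8% of those tested), 2512 higher (17.4%) and 2662 lower (18.4%), with 513 of them at least 2-fold (3.55%). In A549, 3694 genes were called (25.5%), 2078 higher (14.4%) and 1616 lower (11.2%), with 550 at least 2-fold (3.8%). The difference between lines was called for 2675 genes (18.5%), of which 1041 were positive (7.19%) and 1634 negative (11.3%), and 531 reached 2-fold (3.67%). Panc1 had 3 libraries a group against 2, so call counts are not comparable as sizes of effect: with 2 libraries in every group, 3533 genes were called in Panc1 and 3667 in A549. Across the 11766 genes the effects in Panc1 and A549 had a Pearson r of 0.33 and a Spearman coefficient of 0.31, as a description; the lines share no library.

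**Figure D1:**
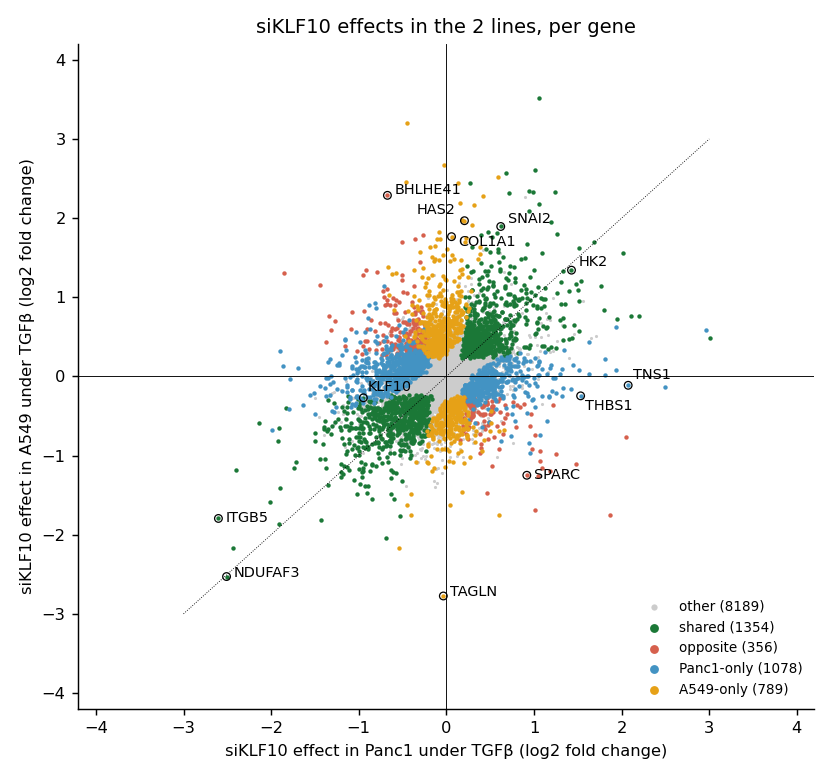
Each point is 1 of the 11766 genes with at least 1 CPM in each line; the x axis is the siKLF10 effect under TGFβ in Panc1 and the y axis that in A549, both as log2 fold changes, and 2 genes lie outside the plotted range. Colours give the class of the effect, circles mark named genes, and the dotted line is equal effect: ITGB5 and NDUFAF3 lie low in both lines, SPARC and BHLHE41 in opposite quadrants.

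The 11766 genes were put in classes by the 3 tests. A shared effect, called in both lines in the same direction, was seen for 1354 genes (11.5%), 703 higher and 651 lower. Of these, 1135 had no called difference in size and 219 differed in size. An opposite effect, called in both lines in opposite directions, was seen for 356 genes (3.03%): 120 rose in Panc1 and fell in A549, and 236 fell in Panc1 and rose in A549. A change called in Panc1 and not in A549, with a called difference, was seen for 1078 genes (9.16%), 441 higher and 637 lower, named Panc1-only here. The mirror class, A549-only, held 789 genes (6.71%), 490 higher and 299 lower.

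Genes called in 1 line with no called difference stayed unresolved: 2066 in Panc1 (17.6%) and 749 in A549 (6.37%). Another 124 genes had a called difference with no call in either line (1.05%), and 5250 had no call (44.6%). Among the 1710 genes called in both lines, 79.2% were shared and 20.8% opposite. The shared genes were 27.9% of those called in Panc1 and 41.7% of those called in A549. Where both effects reached 2-fold, 47 genes were shared and 9 opposite. A further 2704 tested genes were under 1 CPM in a line and got no class, and 109 of them had a called difference.

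**Figure D2:**
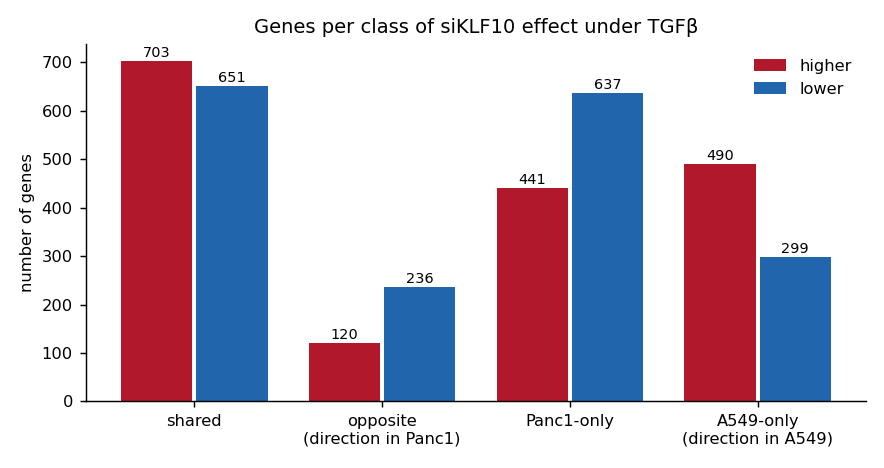
Number of genes (y axis) in the 4 classes of called siKLF10 effect under TGFβ, split into higher (red) and lower (blue); for opposite genes the direction is that in Panc1, for A549-only genes that in A549. Shared genes split nearly evenly (703 and 651), while more opposite genes were lower in Panc1 (236) than higher (120).

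Of the 8 leading shared falls, 3 were deeper in Panc1 by a called difference and 5 had no called difference. NDUFAF3, an assembly factor of mitochondrial complex I, measured 7.60, 5.02 and 4.26 CPM in Panc1 siKLF10+TGFβ against 31.3, 35.6 and 31.6 CPM in Panc1 TGFβ, and 8.43 and 5.20 CPM in A549 siKLF10+TGFβ against 36.8 and 38.4 CPM in A549 TGFβ. Every siKLF10+TGFβ library was far below every TGFβ library of its line. The log2 change was -2.51 ± 0.17 in Panc1 (adjusted p = 4.99e-09) and -2.53 ± 0.20 in A549 (adjusted p = 1.02e-07), a difference of 0.02 ± 0.28.

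ITGB5, the integrin β5 chain, measured 75.4, 76.5 and 74.5 CPM in Panc1 siKLF10+TGFβ against 448, 474 and 452 CPM in Panc1 TGFβ, and 98.9 and 81.98 CPM in A549 siKLF10+TGFβ against 327 and 298 CPM in A549 TGFβ. The groups lay apart in both lines, and the fall was deeper in Panc1 (-2.60 ± 0.08) than in A549 (-1.79 ± 0.09; difference -0.81 ± 0.12, adjusted p = 3.26e-05). MYO1C, an unconventional myosin that links membranes to actin, fell by 1.90 and 1.41 on the log2 scale in Panc1 and A549, again with a called difference of -0.49 ± 0.10. RABL5, a small GTPase of intraflagellar transport, changed by -1.91 ± 0.13 and -1.86 ± 0.13, and OSTC, a subunit of the oligosaccharyltransferase complex, by -1.43 ± 0.09 and -1.81 ± 0.11, with no called difference for either. METAP1, a methionine aminopeptidase, changed by -1.20 ± 0.07 and -1.27 ± 0.09. TRMT112, an activating partner of several methyltransferases, changed by -2.01 ± 0.21 and -1.59 ± 0.26, and MREG, melanoregulin, by -2.40 ± 0.19 and -1.19 ± 0.20. These 8 genes lead the shared falls by the smaller of their 2 effects. Without A549 siKLF10+TGFβ B, TRMT112 lost its A549 call (log2 change -1.49) and MREG its called difference of -1.21 ± 0.29 (then -0.94).

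The leading shared rises included a glycolytic enzyme, a growth factor and an AP-1 subunit. HK2, the hexokinase that starts glycolysis, measured 38.1, 41.6 and 41.9 CPM in Panc1 siKLF10+TGFβ against 14.6, 15.98 and 14.6 CPM in Panc1 TGFβ, and 18.3 and 20.8 CPM in A549 siKLF10+TGFβ against 7.59 and 8.02 CPM in A549 TGFβ. All siKLF10+TGFβ libraries were above all TGFβ libraries of their line, with log2 changes of 1.43 ± 0.09 and 1.34 ± 0.15. PDGFA, a platelet-derived growth factor chain, measured 171, 169 and 157 CPM in Panc1 siKLF10+TGFβ against 66.1, 69.97 and 64.5 CPM in Panc1 TGFβ, and 101 and 143 CPM in A549 siKLF10+TGFβ against 53.5 and 54.1 CPM in A549 TGFβ. It rose by 1.31 ± 0.10 in Panc1 and 1.19 ± 0.12 in A549 on the log2 scale, with a difference of 0.12 ± 0.15 that was not called.

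FOSB, an AP-1 subunit, rose by 1.76 ± 0.15 in Panc1 and 1.15 ± 0.16 in A549, and BDH1, an enzyme of ketone body metabolism, by 1.54 ± 0.15 and 1.20 ± 0.21. The ephrin receptor gene EPHA7 rose by 1.04 ± 0.10 and 1.13 ± 0.19, CCBL2 by 1.40 ± 0.10 and 1.08 ± 0.15, and KIAA1024 by 1.26 ± 0.15 and 1.05 ± 0.13. SORCS2, a sorting receptor, was the exception among the 8 leading rises in that its effect differed in size, 1.06 ± 0.15 in Panc1 and 2.18 ± 0.12 in A549 (difference -1.12 ± 0.20, adjusted p = 3.13e-04). The glucose transporter gene SLC2A1 measured 75.1, 69.8 and 71.1 CPM in Panc1 siKLF10+TGFβ against 28.97, 29.6 and 29.1 CPM in Panc1 TGFβ, and 407 and 368 CPM in A549 siKLF10+TGFβ against 239 and 232 CPM in A549 TGFβ. It rose in both lines, by 1.30 ± 0.08 and 0.72 ± 0.08, and more in Panc1 (difference 0.58 ± 0.11, adjusted p = 6.14e-04).

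Among genes that moved in opposite directions, the secreted proteins SPARC and IGFBP3 rose in Panc1 and fell in A549. SPARC, a collagen-binding matrix protein, measured 11.1, 12.3 and 9.79 CPM in Panc1 siKLF10+TGFβ against 6.62, 5.33 and 5.61 CPM in Panc1 TGFβ, and 36.8 and 30.6 CPM in A549 siKLF10+TGFβ against 78.6 and 80.5 CPM in A549 TGFβ. The siKLF10+TGFβ libraries were all higher in Panc1 and all lower in A549 than the TGFβ libraries. The log2 change was 0.92 ± 0.13 in Panc1 (adjusted p = 1.05e-05) and -1.25 ± 0.11 in A549 (adjusted p = 2.75e-08), a difference of 2.17 ± 0.18 (adjusted p = 9.60e-09).

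IGFBP3, a secreted carrier of insulin-like growth factors and a TGFβ target, measured 137, 130.3 and 125 CPM in Panc1 siKLF10+TGFβ against 65.1, 65.2 and 68.6 CPM in Panc1 TGFβ, and 689 and 644 CPM in A549 siKLF10+TGFβ against 1272 and 1243 CPM in A549 TGFβ. About the same step was seen up and down, 0.98 ± 0.07 in Panc1 and -0.92 ± 0.08 in A549 on the log2 scale (difference 1.90 ± 0.11, adjusted p = 6.15e-11). The other leading genes of this direction were C20orf160 (2.05 ± 0.11 in Panc1 and -0.76 ± 0.16 in A549), LINC00312 (1.19 ± 0.16 and -1.20 ± 0.19), MEGF6 (1.09 ± 0.14 and -1.15 ± 0.17), the kinase gene ALPK2 (1.07 ± 0.15 and -0.94 ± 0.10), the junctional adhesion gene ESAM (0.46 ± 0.15 and -1.47 ± 0.13) and RASGRP3, a Ras activator (1.21 ± 0.10 and -0.36 ± 0.09). The difference was called for all 356 opposite genes, and among these 8 its adjusted p was least for IGFBP3. C20orf160 had the largest difference, 2.81 ± 0.20: it averaged 36.4 ± 4.63 CPM in Panc1 siKLF10+TGFβ and 8.81 ± 0.354 CPM in Panc1 TGFβ (mean ± SD, n = 3 each). The Panc1 call of ESAM was lost without Panc1 siKLF10+TGFβ A (0.36) or Panc1 TGFβ A (0.38), and the A549 call of RASGRP3 without A549 TGFβ A (-0.31).

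In the other direction, the transcription factors BHLHE41 and FOXQ1 and the Wnt antagonist SFRP1 fell in Panc1 and rose in A549. BHLHE41, a repressor of the circadian clock network, measured 15.7, 18.2 and 19.2 CPM in Panc1 siKLF10+TGFβ against 26.8, 24.1 and 32.99 CPM in Panc1 TGFβ, and 21.8 and 23.2 CPM in A549 siKLF10+TGFβ against 5.26 and 3.72 CPM in A549 TGFβ. The groups lay apart in both lines and in opposite order. The changes were -0.67 ± 0.12 and 2.29 ± 0.20, and the difference of -2.96 ± 0.23 (adjusted p = 3.96e-09) was the largest negative one among opposite genes of at least 5 CPM in each line. SFRP1, a secreted Wnt antagonist, measured 50.1, 50.9 and 53.7 CPM in Panc1 siKLF10+TGFβ against 84.8, 87.9 and 94.4 CPM in Panc1 TGFβ, and 179 and 198 CPM in A549 siKLF10+TGFβ against 82.2 and 68.3 CPM in A549 TGFβ. Its changes were -0.79 ± 0.08 in Panc1 and 1.32 ± 0.10 in A549 (difference -2.11 ± 0.13, adjusted p = 1.14e-10).

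FOXQ1, a forkhead factor, changed by -0.51 ± 0.14 in Panc1 and 1.69 ± 0.16 in A549. ANPEP, aminopeptidase N, changed by -1.34 ± 0.08 and 0.76 ± 0.18, PLXNA4, a semaphorin receptor, by -0.36 ± 0.14 and 1.74 ± 0.13, and NPTXR, the neuronal pentraxin receptor, by -0.27 ± 0.08 and 1.79 ± 0.10. MYH15, a myosin heavy chain, changed by -0.92 ± 0.13 and 1.34 ± 0.17, and ACPL2 by -1.27 ± 0.13 and 0.70 ± 0.12. For PLXNA4 and NPTXR most of the difference came from the A549 side. The Panc1 call of PLXNA4 was lost without Panc1 siKLF10+TGFβ B or C or any 1 of the Panc1 TGFβ libraries (-0.39 to -0.29), and that of NPTXR without Panc1 siKLF10+TGFβ B (-0.20). The A549 call of ANPEP was lost without A549 TGFβ A (0.50).

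**Figure D3:**
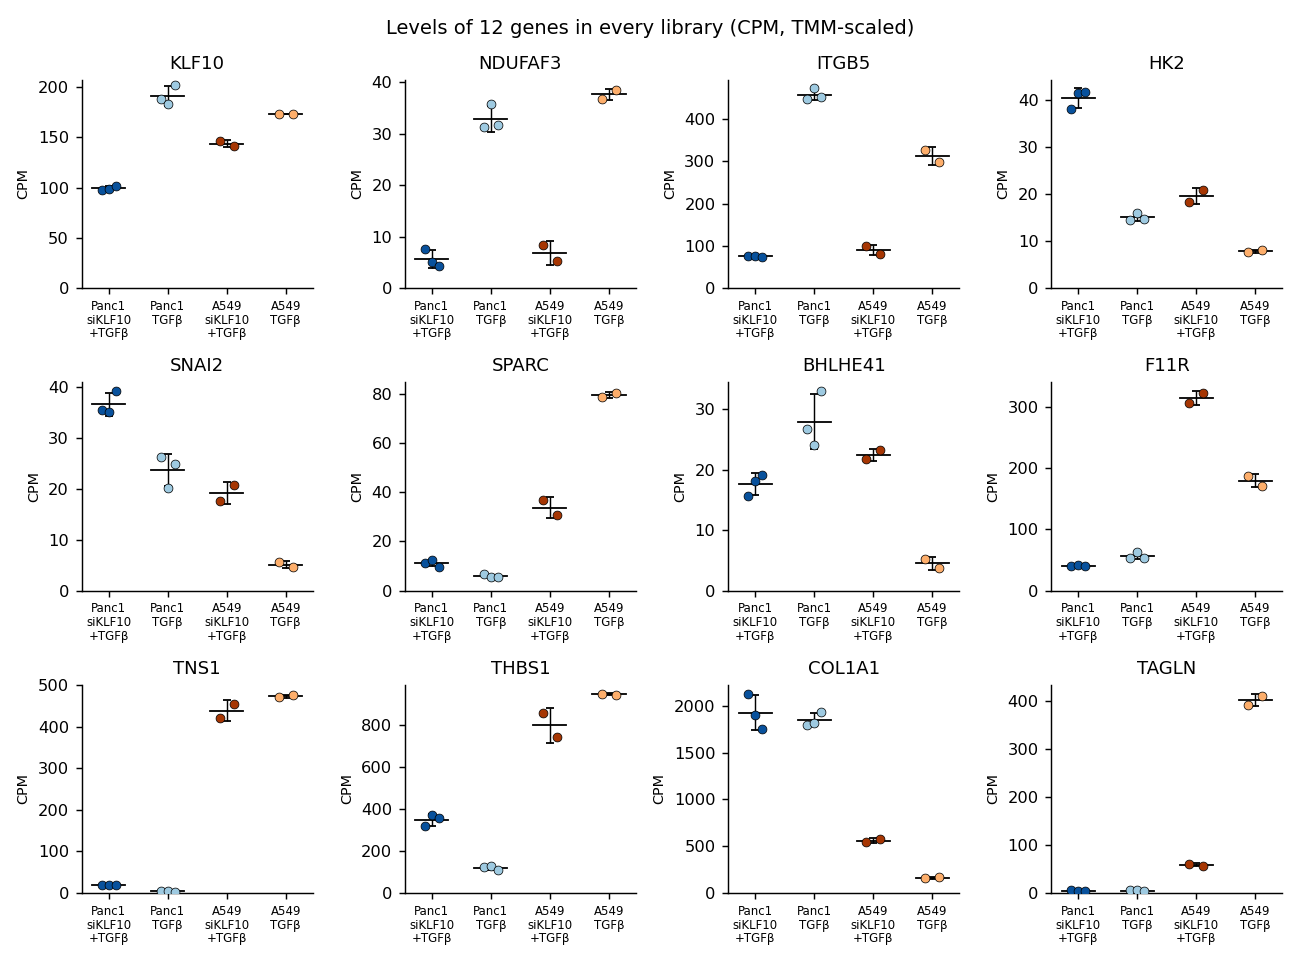
CPM (y axis, TMM-scaled) of 12 genes in each library, as points, with the group mean and SD as bars; each panel has the groups Panc1 siKLF10+TGFβ, Panc1 TGFβ, A549 siKLF10+TGFβ and A549 TGFβ from left to right. KLF10, NDUFAF3 and ITGB5 are lower with siKLF10 in both lines, HK2 and SNAI2 higher in both, SPARC is higher in Panc1 and lower in A549, BHLHE41 and F11R the reverse.

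Panc1-only genes included a focal adhesion adaptor and a matrix glycoprotein that A549 held at a much higher level throughout. TNS1, which encodes the adaptor tensin 1, measured 18.8, 18.6 and 18.4 CPM in Panc1 siKLF10+TGFβ against 4.84, 5.01 and 3.47 CPM in Panc1 TGFβ, and 419.7 and 455 CPM in A549 siKLF10+TGFβ against 471 and 476 CPM in A549 TGFβ. It rose in Panc1 (2.07 ± 0.12, adjusted p = 7.64e-12) and was not called in A549 (-0.11 ± 0.09, adjusted p = 0.378), with a difference of 2.19 ± 0.15 (adjusted p = 6.59e-10). THBS1, thrombospondin 1, an activator of latent TGFβ, measured 318, 370.1 and 359 CPM in Panc1 siKLF10+TGFβ against 123, 129 and 109.5 CPM in Panc1 TGFβ, and 857 and 741 CPM in A549 siKLF10+TGFβ against 949 and 945 CPM in A549 TGFβ. It rose by 1.53 ± 0.08 in Panc1, while A549 gave -0.25 ± 0.09 (adjusted p = 0.0560), both A549 siKLF10+TGFβ libraries lying below both A549 TGFβ libraries. The difference was 1.78 ± 0.12 (adjusted p = 8.52e-10).

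Further Panc1-only rises were KRCC1 (1.94 ± 0.12 in Panc1, 0.08 ± 0.12 in A549), IFT46, of intraflagellar transport (1.80 ± 0.15 and 0.02 ± 0.14), the β-secretase gene BACE1 (1.62 ± 0.12 and 0.03 ± 0.12), SERPINI1 (1.42 ± 0.15 and -0.16 ± 0.19), TSPAN12 (1.32 ± 0.15 and -0.25 ± 0.16) and the p53 target PLK2 (1.25 ± 0.08 and -0.21 ± 0.09). Panc1-only falls included signalling and receptor genes. HIPK2, a kinase that phosphorylates p53, measured 66.6, 61.7 and 64.4 CPM in Panc1 siKLF10+TGFβ against 179.8, 171 and 173 CPM in Panc1 TGFβ, and 49.2 and 53.97 CPM in A549 siKLF10+TGFβ against 52.96 and 59.6 CPM in A549 TGFβ. Its Panc1 groups lay far apart and its A549 groups overlapped (-1.44 ± 0.07 and -0.12 ± 0.10, difference -1.33 ± 0.12). SEMA4B changed by -1.35 ± 0.08 in Panc1 and -0.02 ± 0.10 in A549, the glucose transporter gene SLC2A12 by -1.22 ± 0.08 and 0.14 ± 0.11, the interleukin 6 receptor gene IL6R by -1.56 ± 0.17 and -0.24 ± 0.19, and the Ras effector gene RIN1 by -1.35 ± 0.15 and 0.18 ± 0.19. CMTM8, C9orf167 and ZNF618 fell in Panc1 by 0.98, 1.24 and 1.38 on the log2 scale, against changes of 0.43, 0.14 and -0.02 in A549.

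A549-only rises included COL1A1 and HAS2, which make matrix and had higher CPM in every Panc1 library than in any A549 library. COL1A1, the main chain of type I collagen, measured 2126, 1897 and 1756 CPM in Panc1 siKLF10+TGFβ against 1799, 1821 and 1930.4 CPM in Panc1 TGFβ, and 544 and 577 CPM in A549 siKLF10+TGFβ against 158 and 173 CPM in A549 TGFβ. The Panc1 groups overlapped (0.06 ± 0.07, adjusted p = 0.568), whereas A549 rose by 1.77 ± 0.09 (adjusted p = 6.73e-12; difference -1.71 ± 0.12, adjusted p = 8.52e-10). HAS2, a hyaluronan synthase, measured 45.2, 48.3 and 52.9 CPM in Panc1 siKLF10+TGFβ against 45.3, 39.02 and 42.3 CPM in Panc1 TGFβ, and 9.71 and 12.5 CPM in A549 siKLF10+TGFβ against 3.12 and 2.58 CPM in A549 TGFβ. Only the A549 rise was called (0.21 ± 0.09 in Panc1 and 1.97 ± 0.21 in A549; difference -1.76 ± 0.23, adjusted p = 1.18e-05).

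The matrix glycoprotein gene TNC changed by -0.14 ± 0.11 in Panc1 and rose by 1.46 ± 0.15 in A549, and the elastic fibre protein gene EMILIN2 gave -0.08 ± 0.15 and 1.47 ± 0.18. The integrin ligand gene EDIL3 gave -0.17 ± 0.10 in Panc1 and 1.51 ± 0.18 in A549, and FLRT2, a fibronectin- and leucine-rich-repeat membrane protein, 0.00478 ± 0.08 and 1.61 ± 0.13. ITPKB, an inositol phosphate kinase, gave -0.13 ± 0.10 and 1.48 ± 0.18, and IFNE, interferon epsilon, -0.18 ± 0.26 and 1.64 ± 0.34. By the definition of the class, all 6 had a called rise in A549, no call in Panc1 and a called difference. The differences ran from -1.82 for IFNE to -1.55 for EMILIN2.

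The largest A549-only fall was that of an actin-binding TGFβ target. TAGLN, which encodes transgelin, measured 5.56, 4.46 and 5.19 CPM in Panc1 siKLF10+TGFβ against 5.62, 5.56 and 4.54 CPM in Panc1 TGFβ, and 61.00 and 56.7 CPM in A549 siKLF10+TGFβ against 393 and 411 CPM in A549 TGFβ. Its log2 value in Panc1, where it was near the low end of the levels named here, was -0.04 ± 0.14, and it fell by 2.77 in A549 (adjusted p = 1.37e-15); the difference was 2.74 ± 0.17 (adjusted p = 1.35e-10). CRIP1, a LIM-domain protein, gave -0.40 ± 0.19 in Panc1 and -1.75 ± 0.26 in A549, the water channel gene AQP3 -0.45 ± 0.20 and -1.62 ± 0.23, and the ephrin ligand gene EFNA1 0.27 ± 0.17 and -1.02 ± 0.12. SAMD4A gave -0.01 ± 0.08 in Panc1 and -1.15 ± 0.09 in A549, the cell cycle phosphatase gene CDKN3 0.17 ± 0.07 and -0.94 ± 0.10, LINC00152 0.03 ± 0.14 and -1.07 ± 0.16, and SCML1 0.34 ± 0.15 and -0.69 ± 0.17. The class requires a call in A549, so all 7 falls there were called. The difference of CRIP1 lost its call without any 1 of the 4 A549 libraries, and that of AQP3 without A549 siKLF10+TGFβ B or A549 TGFβ A; CRIP1 then ranged from 1.18 to 1.48 and AQP3 from 0.93 to 1.07. The CRIP1 fall itself was not called without A549 siKLF10+TGFβ B (-1.58).

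The genes of the epithelial-to-mesenchymal transition did not move as 1 block. SNAI2 measured 35.5, 35.1 and 39.2 CPM in Panc1 siKLF10+TGFβ against 26.1, 20.2 and 24.8 CPM in Panc1 TGFβ, and 17.7 and 20.7 CPM in A549 siKLF10+TGFβ against 5.65 and 4.58 CPM in A549 TGFβ. It rose in both lines, 1.54-fold in Panc1 and 3.72-fold in A549, and the log2 difference of -1.27 ± 0.21 was called (adjusted p = 1.52e-04). SNAI1 rose by 0.75 ± 0.09 in Panc1 and 0.41 ± 0.14 in A549 with no called difference (0.34 ± 0.17, adjusted p = 0.173), its A549 call being lost without A549 siKLF10+TGFβ B, A549 TGFβ A or A549 TGFβ B (0.38 to 0.42). ZEB1 measured 137, 144 and 151 CPM in Panc1 siKLF10+TGFβ against 154, 149 and 152 CPM in Panc1 TGFβ, and 52.8 and 69.05 CPM in A549 siKLF10+TGFβ against 44.3 and 45.8 CPM in A549 TGFβ. It rose in A549 (0.45 ± 0.11, adjusted p = 0.00398) and not detectably in Panc1 (-0.08 ± 0.08, adjusted p = 0.497). The ZEB1 difference of -0.52 ± 0.14 fell to -0.31 without A549 siKLF10+TGFβ B and was then not called, nor was it without A549 TGFβ A (-0.51).

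CDH2 rose about equally, by 0.55 ± 0.07 in Panc1 and 0.65 ± 0.09 in A549, and VIM fell in both, by 0.99 and 0.77 (difference -0.22 ± 0.12, called at -0.33 only without A549 siKLF10+TGFβ B). VIM measured 6902, 6235 and 5944 CPM in Panc1 siKLF10+TGFβ against 12702, 11905 and 13292 CPM in Panc1 TGFβ, and 1095 and 939 CPM in A549 siKLF10+TGFβ against 1708 and 1757 CPM in A549 TGFβ, so 2 markers of the mesenchymal state moved in opposite directions in each line. CDH1 was scarce in Panc1, with 1.92, 2.63 and 1.53 CPM in siKLF10+TGFβ against 4.34, 3.29 and 3.07 CPM in TGFβ, and measured 36.9 and 38.4 CPM in A549 siKLF10+TGFβ against 43.1 and 36.5 CPM in A549 TGFβ. It fell in Panc1 (-0.81 ± 0.21, adjusted p = 0.00459); the difference of -0.72 ± 0.25 passed only narrowly (adjusted p = 0.0458) and was lost with RLE scaling (-0.69) with the transcript-length trend removed (-0.66), and without any 1 of 6 of the libraries (-0.775 to -0.558). Leaving out A549 TGFβ A turned the CDH1 change in A549, which was not called and stood at -0.09, to 0.058. FN1 measured 236 ± 11.7 CPM in Panc1 siKLF10+TGFβ and 238 ± 23.7 CPM in Panc1 TGFβ, and 6573 ± 522 CPM in A549 siKLF10+TGFβ and 5307 ± 377 CPM in A549 TGFβ (mean ± SD, n = 3 and n = 2 each). Its A549 rise of 0.31 ± 0.09 (adjusted p = 0.0175) was not called without A549 siKLF10+TGFβ A or A549 TGFβ B (both 0.24) or with the transcript-length trend removed (0.18), and its change in Panc1 of -0.01 was not called and changed sign with RLE scaling (0.0078). SMAD7, the inhibitory SMAD that TGFβ induces, rose by 0.40 ± 0.09 in Panc1 and 0.34 ± 0.09 in A549, its A549 rise not called without A549 siKLF10+TGFβ B (0.29) or A549 TGFβ B (0.30).

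The counts of each gene list are given with their share of the list, beside the shares over all genes tested: 17.4% rose and 18.4% fell in Panc1, 14.4% rose and 11.2% fell in A549, and the difference was positive for 7.19% and negative for 11.3%. The median effect over all genes was 0.00 in Panc1 and 0.03 in A549. Those shares come from the fit of all 10 libraries. Leaving out 1 library moved the number of calls over all genes too. List counts from such fits are therefore no measure of the lists alone. Over the 27 mesenchymal genes tested, 8 rose (29.6%) and 7 fell (25.9%) in Panc1, and 12 rose (44.4%) and 3 fell (11.1%) in A549; the difference was positive for 1 (3.70%) and negative for 11 (40.7%). The A549 rises and the negative differences were more frequent than over all genes. The median effect was -0.03 in Panc1 and 0.30 in A549. WNT5A, a secreted Wnt ligand, rose by 0.46 ± 0.12 in Panc1 and 1.61 ± 0.23 in A549, its difference of -1.15 ± 0.26 falling to -0.89 and out of the calls without A549 TGFβ A. The integrin β3 gene ITGB3 gave 0.12 ± 0.09 in Panc1 and rose in A549 (1.07 ± 0.12). The 1 positive difference was that of DLC1, with 0.66 ± 0.08 in Panc1 and -0.00185 ± 0.10 in A549.

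Of the 38 epithelial genes tested, 4 rose (10.5%) and 10 fell (26.3%) in Panc1, and 7 rose (18.4%) and 7 fell (18.4%) in A549; the difference was positive for 4 (10.5%) and negative for 9 (23.7%). The counts in A549 and of positive differences moved with single A549 libraries, as did the calls over all genes. The median difference, -0.248, ranged from -0.316 to -0.086 over the left-out libraries. F11R, the tight junction protein JAM-A, measured 39.6, 41.9 and 40.6 CPM in Panc1 siKLF10+TGFβ against 53.7, 63.2 and 53.1 CPM in Panc1 TGFβ, and 306 and 322 CPM in A549 siKLF10+TGFβ against 187 and 171 CPM in A549 TGFβ. It fell in Panc1 and rose in A549 without overlap (-0.48 ± 0.08 and 0.81 ± 0.09, difference -1.29 ± 0.12, adjusted p = 9.67e-08). DSC2, a desmosomal cadherin, rose in both lines and more in A549 (0.47 ± 0.10 and 1.13 ± 0.11; difference -0.66 ± 0.15, adjusted p = 0.00378). The protease inhibitor gene SPINT2 fell in Panc1 only (-0.80 ± 0.08 against 0.01 ± 0.10 in A549; difference -0.80 ± 0.13, adjusted p = 1.02e-04).

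Integrin and focal adhesion genes held 5 opposite members of 26 tested, against 3.03% of the 11766 genes put in classes, and 3 of those named by rule fell in Panc1 and rose in A549. On this list 6 rose (23.1%) and 10 fell (38.5%) in Panc1, and 10 rose (38.5%) and 2 fell (7.69%) in A549; the difference was positive for 5 (19.2%) and negative for 8 (30.8%). With the transcript-length trend removed per library, 8 rose and 5 fell in A549, and the median difference, -0.160, became -0.032. ITGA6, a laminin receptor chain, measured 169.7, 178 and 179.6 CPM in Panc1 siKLF10+TGFβ against 257, 265 and 266 CPM in Panc1 TGFβ, and 321 and 402 CPM in A549 siKLF10+TGFβ against 214 and 202 CPM in A549 TGFβ. Its partner chain ITGB4 measured 2.11, 3.51 and 2.81 CPM in Panc1 siKLF10+TGFβ against 6.83, 7.99 and 6.81 CPM in Panc1 TGFβ, and 419 and 439 CPM in A549 siKLF10+TGFβ against 328 and 306 CPM in A549 TGFβ. Both were lower in every Panc1 siKLF10+TGFβ library and higher in every A549 siKLF10+TGFβ library than in the TGFβ libraries of that line. The log2 differences were -1.38 ± 0.12 for ITGA6 and -1.81 ± 0.18 for ITGB4. PXN, the focal adhesion scaffold paxillin, followed them, with -0.70 ± 0.07 in Panc1, 0.90 ± 0.09 in A549 and a difference of -1.60 ± 0.12 (adjusted p = 1.95e-09).

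Matrix genes rose more often than they fell in both lines. Of 46 tested, 19 rose (41.3%) and 8 fell (17.4%) in Panc1, and 23 rose (50%) and 4 fell (8.70%) in A549, with 12 shared rises; the difference was positive for 6 (13%) and negative for 8 (17.4%). The rises in each line were more frequent than over all genes, while the Panc1 falls were near the share over all genes. Without A549 TGFβ B, 14 rose in A549, and without Panc1 siKLF10+TGFβ A, 7 fell there. The median effect was 0.17 in Panc1 and 0.29 in A549. Their summed level was 7847 to 8167 CPM in Panc1 siKLF10+TGFβ against 6524 to 6691 CPM in Panc1 TGFβ, and 30044 to 30314 CPM in A549 siKLF10+TGFβ against 22272 to 23313 CPM in A549 TGFβ. VCAN, the proteoglycan versican, rose by 1.35 ± 0.12 in Panc1 and 0.92 ± 0.10 in A549, and FBN1, fibrillin 1, by 0.79 ± 0.08 and 0.90 ± 0.11. In A549, effects rose with transcript length (median -0.052 over the 3512 shortest transcripts and 0.124 over the 3512 longest, against -0.038 and 0.0076 in Panc1). With that trend removed per library, 19 matrix genes rose and 5 fell in A549, with a median of 0.16.

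Of 36 TGFβ targets and pathway genes tested, 21 rose (58.3%) and 7 fell (19.4%) in Panc1, and 17 rose (47.2%) and 8 fell (22.2%) in A549, with 13 shared rises and 3 shared falls. The difference was positive for 8 (22.2%) and negative for 6 (16.7%), both more frequent than over all genes. The rises in each line were more frequent than over all genes; the A549 falls numbered 4 without A549 TGFβ A. The medians were 0.34 and 0.27. SMAD6, an inhibitory SMAD, measured 24.9, 30.2 and 25.4 CPM in Panc1 siKLF10+TGFβ against 14.4, 15.4 and 16.3 CPM in Panc1 TGFβ, and 42.3 and 37.5 CPM in A549 siKLF10+TGFβ against 49.9 and 51.8 CPM in A549 TGFβ. Unlike SMAD7, it moved in opposite directions (0.80 ± 0.10 and -0.36 ± 0.11, difference 1.16 ± 0.15, adjusted p = 9.04e-06). CYR61, a matricellular protein, likewise rose in Panc1 (0.59 ± 0.06) and fell in A549 (-0.31 ± 0.08). The A549 falls were small: that of SMAD6 was not called without A549 siKLF10+TGFβ B, A549 TGFβ A or A549 TGFβ B (-0.37 to -0.26), nor that of CYR61 without A549 TGFβ A (-0.28). LTBP2, a latent TGFβ binding protein, fell in both lines (-1.01 ± 0.06 and -0.76 ± 0.08).

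**Figure D4:**
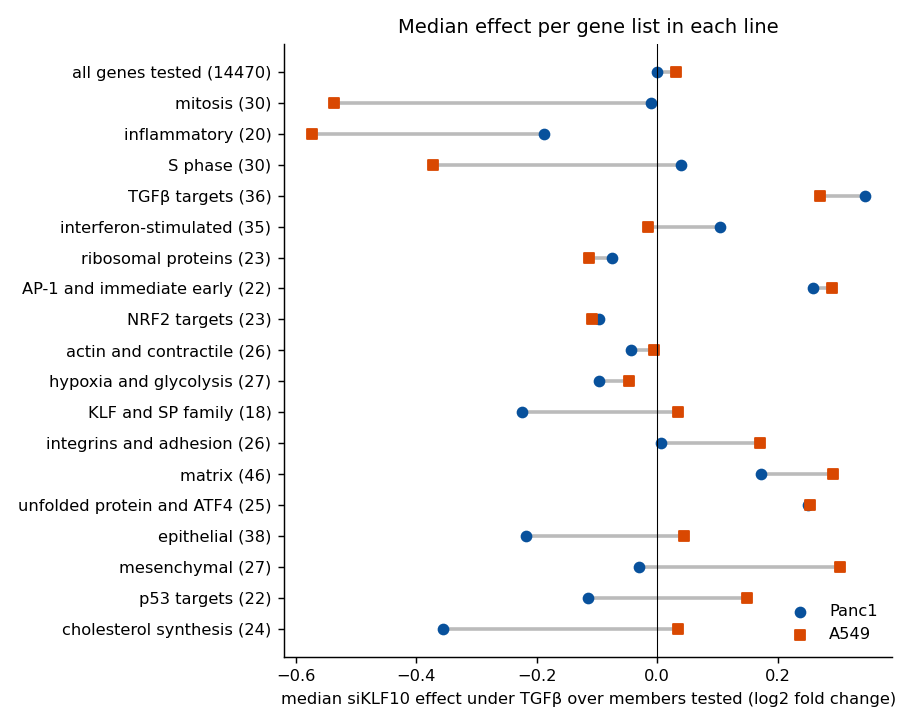
Median siKLF10 effect under TGFβ (x axis, log2 fold change) over the tested members of 18 gene lists and over all genes tested, with the number of members in brackets; blue is Panc1, orange A549, and the grey line joins both. The mitosis, S phase and inflammatory lists have lower medians in A549 than in Panc1, and the cholesterol, p53 target and mesenchymal lists lower medians in Panc1.

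Most cell cycle genes fell in A549, while the shares called in Panc1 were near those over all genes. Of 30 mitosis genes, 5 rose (16.7%) and 5 fell (16.7%) in Panc1, and 0 rose and 23 fell (76.7%) in A549; the difference was positive for 23 (76.7%) and negative for 0. The 5 Panc1 rises numbered 3 to 8 over the left-out libraries, 3 without Panc1 siKLF10+TGFβ B or Panc1 TGFβ A or C and 8 without either A549 siKLF10+TGFβ library. Of 30 S phase genes, 4 rose (13.3%) and 6 fell (20%) in Panc1, and 1 rose (3.33%) and 22 fell (73.3%) in A549; the difference was positive for 14 (46.7%) and negative for 1 (3.33%). The S phase falls in A549 numbered 13 without A549 TGFβ A and 14 without A549 TGFβ B. Median effects were -0.01 in Panc1 and -0.54 in A549 for mitosis and 0.04 and -0.37 for S phase. The mitosis genes summed to 11778 to 12659 CPM in Panc1 siKLF10+TGFβ against 11485 to 11813 CPM in Panc1 TGFβ, overlapping groups, and to 2919 to 3179 CPM in A549 siKLF10+TGFβ against 4040 to 4203 CPM in A549 TGFβ, groups apart. Each library is a bulk lysate, so fewer cells in a phase and less RNA per cell cannot be told apart.

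CDC25C, the phosphatase that activates the mitotic kinase, measured 36.5, 37.6 and 40.9 CPM in Panc1 siKLF10+TGFβ against 29.9, 35.6 and 32.5 CPM in Panc1 TGFβ, and 12.7 and 10.7 CPM in A549 siKLF10+TGFβ against 21.1 and 18.2 CPM in A549 TGFβ. It had 0.23 ± 0.09 in Panc1 (adjusted p = 0.0563) and fell in A549 (-0.78 ± 0.14), with a difference of 1.02 ± 0.17 (adjusted p = 1.81e-04). The spindle protein gene NUSAP1 had 0.07 ± 0.06 in Panc1 and fell in A549 (-0.75 ± 0.08). The mitotic kinesin gene KIF20A fell in both lines (-0.42 ± 0.08 in Panc1 and -0.95 ± 0.11 in A549); its difference of 0.53 ± 0.13 was not called without A549 siKLF10+TGFβ B (0.32) or A549 TGFβ A (0.48).

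RRM2, the regulated subunit of ribonucleotide reductase, measured 476, 484 and 509.7 CPM in Panc1 siKLF10+TGFβ against 248, 247 and 261 CPM in Panc1 TGFβ, and 119 and 134 CPM in A549 siKLF10+TGFβ against 178 and 173 CPM in A549 TGFβ. It rose 1.95-fold in Panc1 and fell 1.38-fold in A549 (log2 difference 1.43 ± 0.11, adjusted p = 2.75e-09). CCNE2, cyclin E2, rose in Panc1 (0.98 ± 0.10; -0.30 ± 0.16 in A549, difference 1.29 ± 0.19), and RRM1, the other subunit of the reductase, fell in A549 (Panc1 0.15 ± 0.06, A549 -0.47 ± 0.08). The licensing gene MCM5 fell in both lines, by 0.48 and 0.66. RRM2, like ribosomal protein genes, has processed copies elsewhere in the genome, and reads with several alignments are not in the gene counts.

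CDKN1A, the cyclin-dependent kinase inhibitor p21, stood opposite to those genes in A549. It measured 36.9, 35.5 and 35.1 CPM in Panc1 siKLF10+TGFβ against 38.4, 43.2 and 38.5 CPM in Panc1 TGFβ, and 385 and 364 CPM in A549 siKLF10+TGFβ against 201 and 194 CPM in A549 TGFβ. The Panc1 change was -0.16 ± 0.08 (adjusted p = 0.117), the A549 rise 0.92 ± 0.08 (adjusted p = 2.31e-08) and the difference -1.08 ± 0.11 (adjusted p = 4.74e-07). Of 22 p53 targets, 4 rose (18.2%) and 7 fell (31.8%) in Panc1, and 9 rose (40.9%) and 1 fell (4.55%) in A549; the difference was positive for 3 (13.6%) and negative for 9 (40.9%). The Panc1 rises were near the share over all genes, and the A549 rises and negative differences were more frequent. TP53INP1 rose in A549 (Panc1 0.08 ± 0.10, A549 0.97 ± 0.12), and MDM2 and TP53I3 rose in both lines (0.49 ± 0.09 and 0.49 ± 0.11; 1.02 ± 0.07 and 0.55 ± 0.08).

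**Figure D5:**
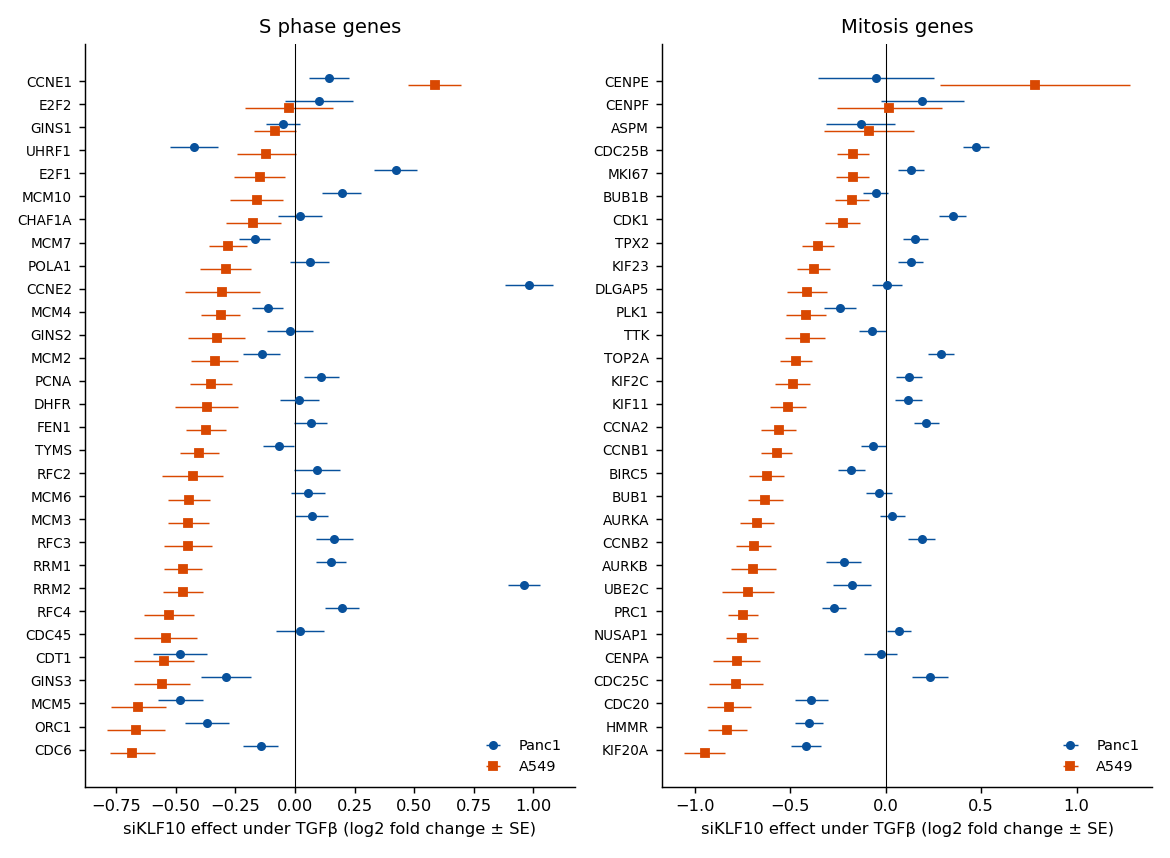
siKLF10 effect under TGFβ (x axis, log2 fold change ± SE) of the 30 S phase genes (left) and the 30 mitosis genes (right), with 1 row per gene ordered by the A549 effect; blue circles are Panc1 and orange squares A549. The A549 points lie mostly below 0 in both panels, with medians of -0.37 and -0.54, while Panc1 points lie on both sides of 0.

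Most inflammatory and NF-κB genes also fell in A549. Of 20 tested, 1 rose (5%) and 5 fell (25%) in Panc1, and 1 rose (5%) and 15 fell (75%) in A549; the difference was positive for 4 (20%) and negative for 1 (5%), so most of these falls were not shown to differ between lines. The 4 positive differences numbered 1 without A549 TGFβ A or A549 TGFβ B and 2 without A549 siKLF10+TGFβ A or Panc1 TGFβ C, and the Panc1 falls numbered 2 without Panc1 TGFβ A and 3 without Panc1 TGFβ B or Panc1 siKLF10+TGFβ C. The list summed to 401 to 434 CPM in Panc1 siKLF10+TGFβ against 421 to 459 CPM in Panc1 TGFβ, and to 1416 to 1443 CPM in A549 siKLF10+TGFβ against 2091 to 2093 CPM in A549 TGFβ. CCL2, a monocyte chemoattractant, measured 199, 164 and 168 CPM in Panc1 siKLF10+TGFβ against 194, 208 and 186 CPM in Panc1 TGFβ, and 299 and 183 CPM in A549 siKLF10+TGFβ against 543 and 528 CPM in A549 TGFβ. It fell in A549 (-1.16 ± 0.20, adjusted p = 0.00289), though the 2 A549 siKLF10+TGFβ libraries were far apart; its difference (1.01 ± 0.25) was not called without Panc1 siKLF10+TGFβ A or C or without either A549 TGFβ library (0.92 to 1.05). BIRC3, an inhibitor of apoptosis, rose in Panc1 (0.43 ± 0.10) and fell in A549 (-0.63 ± 0.11), with a called difference of 1.05 ± 0.15.

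Most cholesterol synthesis genes fell in Panc1. Of 24 tested, 0 rose and 15 fell (62.5%) in Panc1, and 4 rose (16.7%) and 3 fell (12.5%) in A549; the difference was positive for 1 (4.17%) and negative for 11 (45.8%). The A549 shares were near those over all genes, with 2 rises without A549 TGFβ A. The medians were -0.36 in Panc1 and 0.03 in A549. LSS, lanosterol synthase, measured 38.9, 36.3 and 34.4 CPM in Panc1 siKLF10+TGFβ against 58.9, 64.2 and 59.1 CPM in Panc1 TGFβ, and 35.1 and 33.5 CPM in A549 siKLF10+TGFβ against 27.6 and 32.1 CPM in A549 TGFβ. It fell in Panc1 (-0.73 ± 0.08; 0.21 ± 0.11 in A549, difference -0.94 ± 0.14, adjusted p = 4.46e-05). SREBF2, which encodes the transcription factor that drives the pathway, fell in Panc1 by 0.63, with 0.11 ± 0.09 in A549. ACAT2, an acetoacetyl-CoA thiolase, fell in both lines (-0.36 ± 0.07 and -0.47 ± 0.10).

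The immediate early and AP-1 genes split by member. Of 22 tested, 8 rose (36.4%) and 5 fell (22.7%) in Panc1, and 8 rose (36.4%) and 2 fell (9.09%) in A549; the difference was positive for 5 (22.7%) and negative for 6 (27.3%). The 5 positive differences numbered 1 without Panc1 siKLF10+TGFβ B, A549 siKLF10+TGFβ B or A549 TGFβ B, 2 without Panc1 TGFβ A or A549 TGFβ A and 3 without Panc1 TGFβ B, and the Panc1 falls numbered 3 without Panc1 siKLF10+TGFβ B. JUN measured 144, 157 and 151 CPM in Panc1 siKLF10+TGFβ against 146, 159.5 and 150.4 CPM in Panc1 TGFβ, and 239.6 and 295 CPM in A549 siKLF10+TGFβ against 135 and 136 CPM in A549 TGFβ. Its Panc1 groups overlapped (-0.01 ± 0.08), and it rose in A549 (0.98 ± 0.09; difference -0.99 ± 0.12, adjusted p = 3.91e-06). FOSL1, another AP-1 subunit, fell in Panc1 (-0.69 ± 0.09; 0.35 ± 0.13 in A549). SPRY4, a feedback inhibitor of ERK signalling, fell in Panc1 and rose in A549 (-0.73 ± 0.07 and 0.35 ± 0.10), the A549 call being lost without A549 TGFβ B (0.28).

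The unfolded protein response and ATF4 genes rose more often than they fell in both lines: of 25 tested, 13 rose (52%) and 6 fell (24%) in Panc1, and 13 rose (52%) and 1 fell (4%) in A549, with 7 shared rises. The difference was positive for 5 (20%) and negative for 6 (24%), both more frequent than over all genes. These numbered 5 and 9 without Panc1 siKLF10+TGFβ A and 3 and 5 without Panc1 TGFβ B, and were fewer without A549 TGFβ A. The A549 rises numbered 8 without A549 TGFβ B. DNAJB9, a chaperone of the endoplasmic reticulum, rose by 0.43 ± 0.09 in Panc1 and 0.58 ± 0.11 in A549, and DDIT4, an mTOR inhibitor, by 0.54 ± 0.11 and 0.72 ± 0.10. SLC7A11, the cystine transporter, rose in A549 (Panc1 0.10 ± 0.10, A549 0.82 ± 0.10, difference -0.72 ± 0.14, adjusted p = 9.15e-04). Among 27 hypoxia and glycolysis genes, 3 rose (11.1%) and 8 fell (29.6%) in Panc1, and 7 rose (25.9%) and 6 fell (22.2%) in A549. Without A549 TGFβ A only 3 rose and 2 fell in A549, and without A549 siKLF10+TGFβ B 4 rose. ADM, adrenomedullin, fell in A549 (Panc1 -0.17 ± 0.08, A549 -1.004 ± 0.10), while the glycolytic genes PFKL and ENO2 fell in Panc1 (-0.71 ± 0.09 and -0.78 ± 0.10, against 0.11 ± 0.09 and -0.22 ± 0.10 in A549), unlike HK2 and SLC2A1.

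Of 18 KLF and SP family genes, 3 rose (16.7%) and 6 fell (33.3%) in Panc1, and 1 rose (5.56%) and 2 fell (11.1%) in A549. KLF10, the targeted gene, is of this family, and its fall in each line was set by the design. KLF6 fell in both lines (-0.35 ± 0.07 and -0.65 ± 0.09), and SP2 fell in Panc1 (-0.82 ± 0.09; -0.08 ± 0.14 in A549), its difference of -0.74 ± 0.16 not being called without A549 TGFβ A (-0.58). Of 26 actin and contractile genes, 5 rose (19.2%) and 8 fell (30.8%) in Panc1, and 3 rose (11.5%) and 8 fell (30.8%) in A549, the A549 falls numbering 4 without A549 TGFβ A and 5 without A549 TGFβ B. There were 5 shared falls, which included SRF, the factor that drives such genes (-0.79 ± 0.09 and -0.55 ± 0.10). TPM1, a tropomyosin, rose in Panc1 (0.51 ± 0.06; -0.08 ± 0.08 in A549). Of 23 NRF2 targets, 5 rose (21.7%) and 6 fell (26.1%) in Panc1, and 3 rose (13%) and 7 fell (30.4%) in A549, the A549 falls numbering 4 without A549 TGFβ B. NQO1 fell in both lines (-0.43 ± 0.08 and -0.40 ± 0.08). Among 35 interferon genes, 5 rose (14.3%) and 3 fell (8.57%) in Panc1, and 2 rose (5.71%) and 3 fell (8.57%) in A549, no share exceeding that over all genes. The Panc1 rises numbered 3 without Panc1 siKLF10+TGFβ B or Panc1 TGFβ A or C. Without Panc1 siKLF10+TGFβ A, 7 rose and 5 fell in Panc1. That fit called 5576 genes in Panc1, against 5174 with all libraries. IFI6, an interferon-induced gene, measured 33.6, 26.4 and 21.8 CPM in Panc1 siKLF10+TGFβ against 13.7, 9.79 and 12.2 CPM in Panc1 TGFβ, and 6.77 and 8.21 CPM in A549 siKLF10+TGFβ against 7.69 and 10.03 CPM in A549 TGFβ. It rose in Panc1 without overlap (1.20 ± 0.15; -0.19 ± 0.25 in A549, where the groups overlapped), and its difference of 1.39 ± 0.29 (adjusted p = 0.00293) was not called with all 20 libraries in the fit (1.38, adjusted p = 0.0668). Among 23 ribosomal protein genes, 2 rose (8.70%) and 2 fell (8.70%) in Panc1, and 1 rose (4.35%) and 1 fell (4.35%) in A549, again below the shares over all genes. Without Panc1 siKLF10+TGFβ A, the Panc1 falls numbered 7 of the 23, in the fit that called 5576 genes in Panc1. The median difference, 0.063, then became -0.072.

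Promoters are shown for the leading gene of 5 classes and directions by the rule for named genes that has an entry in RefSeq's promoter table, because KLF10 is known to bind GC boxes and CACCC elements. Each sequence is the 250 bases before the gene's start in GRCh38.p14, 5′ to 3′ on the gene's strand, with matches to the GC box GGGCGG and to CACCC, on either strand (CCGCCC and GGGTG), in capitals. NDUFAF3 (shared fall) lies at chr3:49020202-49020451 on the plus strand, BHLHE41 (opposite, lower in Panc1) at chr12:26125038-26125287 on the minus strand, LINC00312 (opposite, higher in Panc1) at chr3:8571532-8571781 on the plus strand, TNS1 (Panc1-only rise) at chr2:218010276-218010525 on the minus strand and CRIP1 (A549-only fall) at chr14:105486636-105486885 on the plus strand.
NDUFAF3: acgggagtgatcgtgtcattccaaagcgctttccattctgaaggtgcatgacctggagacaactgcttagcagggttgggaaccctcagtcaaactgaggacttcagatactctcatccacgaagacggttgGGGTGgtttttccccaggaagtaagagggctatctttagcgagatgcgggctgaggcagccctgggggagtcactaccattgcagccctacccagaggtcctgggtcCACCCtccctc
BHLHE41: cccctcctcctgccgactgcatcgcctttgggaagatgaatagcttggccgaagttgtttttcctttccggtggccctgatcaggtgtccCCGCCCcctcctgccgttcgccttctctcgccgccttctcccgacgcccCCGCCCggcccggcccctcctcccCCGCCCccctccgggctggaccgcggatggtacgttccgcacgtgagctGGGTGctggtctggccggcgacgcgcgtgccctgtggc
LINC00312: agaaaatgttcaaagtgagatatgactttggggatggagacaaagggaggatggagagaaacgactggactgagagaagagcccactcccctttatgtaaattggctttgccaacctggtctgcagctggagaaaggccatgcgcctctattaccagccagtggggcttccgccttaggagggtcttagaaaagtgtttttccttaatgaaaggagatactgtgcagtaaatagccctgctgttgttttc
TNS1: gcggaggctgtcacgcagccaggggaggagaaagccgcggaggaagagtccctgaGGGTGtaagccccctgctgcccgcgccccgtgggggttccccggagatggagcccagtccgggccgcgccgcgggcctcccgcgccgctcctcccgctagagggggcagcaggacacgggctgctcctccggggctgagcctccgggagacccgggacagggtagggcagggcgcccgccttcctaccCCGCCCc
CRIP1: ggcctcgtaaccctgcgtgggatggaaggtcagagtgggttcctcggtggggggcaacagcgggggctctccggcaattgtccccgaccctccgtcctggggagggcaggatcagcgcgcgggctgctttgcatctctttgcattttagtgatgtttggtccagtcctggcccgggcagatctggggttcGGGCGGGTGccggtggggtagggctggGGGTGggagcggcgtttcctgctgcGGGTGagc
The NDUFAF3 window held 0 GC boxes and 2 CACCC matches, BHLHE41 3 and 1, LINC00312 0 and 0, TNS1 1 and 1, and CRIP1 1 and 3. Of all 27305 promoters of that length in the table, 42.3% held a GC box and 53.7% a CACCC match, so a match in a single window is common and is a description of its letters. The files' build is hg19, and the 2 builds were not mixed: only names were matched. Only 8464 of the 11766 genes had an entry, fewer than 80%, so a comparison of motifs between classes is void.

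The authors' deposited tables of the same contrasts called 4629 genes in Panc1 and 1814 in A549 at an adjusted p under 0.05. Of these, 4463 and 1789 were also called here. The direction of the deposited fold changes was taken from a comparison with the counts over all genes. With the direction so set, 0 of the genes called in both had the opposite sign. The deposited fold changes had an r of 0.77 with those here in each line. In the authors' deposited table KLF10 had a log2 fold change of -0.92 in Panc1 and -0.28 in A549, the A549 value with an adjusted p of 0.0624.

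The limits of the class counts lie in the A549 libraries and in Panc1 siKLF10+TGFβ A. Without that Panc1 library the called differences numbered 3279, the opposite class 464 and the Panc1-only class 1401, the most of any left-out library. Leaving out A549 TGFβ A lowered the shared class to 786 genes and the opposite class to 179, leaving out A549 TGFβ B to 812 and 194; the called differences then numbered 1513 and 1745. With the transcript-length trend of each library removed, over genes with a length, the shared class held 1373 genes, the opposite class 350, Panc1-only 1170 and A549-only 786. Of the main classes, 1142 of 1354 shared, 265 of 356 opposite, 846 of 1078 Panc1-only and 615 of 789 A549-only genes kept their class. Some had no length: over genes with a length and no trend removed, 1257, 327, 982 and 737 kept it.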

How the data were processed

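Read counts per gene were deposited by the authors as 1 table per library, with poly(A) RNA made into directional libraries per the labels' protocols. Per the submitters' processing notes, HTSeq 0.6.0, Bowtie2, TopHat and DESeq2 were used, and the build was hg19. No source used here gives the strand setting, so overlapping and antisense genes are uncertain, and near-identical genes too, since reads with several alignments stand in a line of their own. The 5 summary lines of each table name no gene and were left out. The deposited tables of the authors' comparisons hold log2 fold changes and p-values per the file headers, beside base means (a signal of normalized counts), and were used only where named.

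The analysis used edgeR 4.0.16 (R 4.3.3, limma 3.58.1). After filterByExpr with a minimum count of 10 and a minimum total of 15, genes were scaled by TMM and fitted with 1 mean per group over 4 groups and 10 libraries, with robust quasi-likelihood dispersions and 6 residual degrees of freedom. edgeR's common coefficient of biological variation was 0.0715. CPM are TMM-scaled. SE come from this fit and include the spread between libraries; floors of 3 counts cover counting error only. Replicate pairs, compared by chi-square over genes with a mean count of 20 or more, gave 2.06 to 12.5 for each degree of freedom, so none was a library deposited again. Panc1 siKLF10+TGFβ A gave 9.11 against B and 12.5 against C, while B and C gave 2.06.

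The comparison, its gene lists and the named genes were chosen with earlier results of these data known. Named genes were 9 fixed genes; up to 8 per class and direction, of at least 5 CPM in each line, by the size of the difference (shared genes: of the smaller effect); and, per list, up to 4 by called difference and 2 by shared effect. Fewer are printed. Alternatives included DESeq2 1.42.0, RLE scaling, other filters, each line alone, all 20 libraries, equal library numbers, thinned counts, a replicate block, a fold minimum and leaving out each library. Transcript lengths from GENCODE (89.5% of the 11766 genes) were added after seeing the data.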

Additional observations from a re-analysis of the deposited data

Results flagged for a closer look

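The siKLF10 effect under TGFβ differed between Panc1 and A549 by its own test for 2675 genes. The named genes among them are given here with the tested log2 difference, Panc1 minus A549, in brackets; no group had enough libraries for a test of single outlying libraries.

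Opposite genes with a positive difference, higher in Panc1 and lower in A549, were C20orf160 (2.81), LINC00312 (2.39), MEGF6 (2.24), SPARC (2.17), ALPK2 (2.005), ESAM (1.93), IGFBP3 (1.90), RASGRP3 (1.57), RRM2 (1.43), SMAD6 (1.16), BIRC3 (1.05) and CYR61 (0.91). Opposite genes with a negative difference were BHLHE41 (-2.96), MYH15 (-2.26), FOXQ1 (-2.20), SFRP1 (-2.11), ANPEP (-2.10), PLXNA4 (-2.09), NPTXR (-2.06), ACPL2 (-1.98), ITGB4 (-1.81), PXN (-1.60), ITGA6 (-1.38), F11R (-1.29) and SPRY4 (-1.08).

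Among Panc1-only genes the difference was positive for TNS1 (2.19), KRCC1 (1.86), IFT46 (1.79), THBS1 (1.78), BACE1 (1.60), SERPINI1 (1.59), TSPAN12 (1.58), PLK2 (1.47), IFI6 (1.39), CCNE2 (1.29), DLC1 (0.66) and TPM1 (0.58). It was negative for RIN1 (-1.53), CMTM8 (-1.41), C9orf167 (-1.38), SLC2A12 (-1.36), ZNF618 (-1.36), HIPK2 (-1.33), SEMA4B (-1.33), IL6R (-1.32), FOSL1 (-1.04), LSS (-0.94), PFKL (-0.81), SPINT2 (-0.80), SREBF2 (-0.74), SP2 (-0.74), CDH1 (-0.72) and ENO2 (-0.56).

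Among A549-only genes the difference was positive, the gene falling in A549, for TAGLN (2.74), CRIP1 (1.35), EFNA1 (1.29), AQP3 (1.18), SAMD4A (1.14), CDKN3 (1.11), LINC00152 (1.11), SCML1 (1.03), CDC25C (1.02), CCL2 (1.01), ADM (0.83), NUSAP1 (0.83) and RRM1 (0.62). It was negative, the gene rising in A549, for IFNE (-1.82), HAS2 (-1.76), COL1A1 (-1.71), EDIL3 (-1.68), ITPKB (-1.62), FLRT2 (-1.61), TNC (-1.60), EMILIN2 (-1.55), CDKN1A (-1.08), JUN (-0.99), ITGB3 (-0.95), TP53INP1 (-0.90), SLC7A11 (-0.72) and ZEB1 (-0.52).

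Shared genes that differed in size had a positive difference for SLC2A1 (0.58), KIF20A (0.53) and TP53I3 (0.48). They had a negative one for SNAI2 (-1.27), MREG (-1.21), WNT5A (-1.15), SORCS2 (-1.12), ITGB5 (-0.81), KLF10 (-0.68), DSC2 (-0.66) and MYO1C (-0.49).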

How the results depend on the processing

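The call counts and class counts stayed within 1.5 times their values under DESeq2, RLE scaling, thinned counts, no filter, a filter of 1 CPM, all 20 libraries, 2 libraries a group and removal of the transcript-length trend, and likewise with each line fitted alone where a count needs no difference; DESeq2 gave 1089 shared and 261 opposite genes. The genes in a class changed more than its size. With 2 libraries in every group, 970 of 1354 shared and 223 of 356 opposite genes kept their class. So did 661 of 1078 Panc1-only and 571 of 789 A549-only genes. Requiring a change of at least 1.5-fold left 1544 genes called in Panc1, 1569 in A549 and 1551 differences, with 291 shared, 46 opposite, 400 Panc1-only and 421 A549-only genes. Leaving out each library in turn gave 1971 to 4279 calls in A549, 1513 to 3279 called differences, 786 to 1663 shared, 179 to 464 opposite, 702 to 1401 Panc1-only and 419 to 1021 A549-only genes. Without A549 siKLF10+TGFβ B, 2312 genes were called in A549 and 514 were A549-only; without A549 TGFβ A these were 1971 and 419; without A549 TGFβ B, 2120 and 455. In those runs 1 A549 group has 1 library, which is assumed to vary like the other groups, and fewer libraries enter. KLF10 in A549 was not called with no filter (-0.254) or at 1.5-fold (-0.271), and ranged from -0.284 to -0.242 over the left-out libraries. Among uncalled values, the sign of FN1 in Panc1 turned with DESeq2 and with RLE scaling (0.0078 both; -0.0895 to 0.040 over left-out libraries), CDH1 in A549 ranged from -0.194 to 0.058 and the SMAD7 difference from -0.00724 to 0.101; the causes were not tested. The share of positive calls among differences was 38.9%, 45.5% with RLE scaling and 47.0% with the length trend removed. The submitters' letters did not pair the libraries (same-letter correlations of -0.116, 0.0529 and -0.0509 in Panc1 and -0.0305 in A549); with the letter as a replicate block the counts were 4954, 3326 and 2349, with 1186 shared, 303 opposite, 994 Panc1-only and 704 A549-only genes, and KLF10 at -0.946 in Panc1, -0.270 in A549 and -0.676 for the difference. Depth limits A549 TGFβ B most, where 3 counts are 0.430 CPM.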
